A study of Mus musculus with 4 samples.

Results

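Gene expression in the left ventricle was compared between sham-operated IL-18 null mice and sham-operated wild-type mice, that is, between the genotypes without any pressure load. The comparison is the log2 intensity of the IL-18 null sham array minus that of the wild-type sham array. Intensities below 64 (log2 of 6, called the floor) were set to 64, and a gene was counted as measured when at least 1 of the 2 sham arrays reached it. A gene with several probe sets was read by the one brightest on average over the series. Of 12393 genes with a probe set of their own, 4851 were measured in this comparison, out of 5158 measured anywhere in the series. The other 7542 genes lay below the floor on both sham arrays. Of the measured genes, 4139 reached the floor on both sham arrays, and for the other 712 the difference is a bound, written "at least".

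The series asks how IL-18 acts on gene expression in hypertrophy caused by pressure overload. It holds 4 arrays, 1 for each group, and each carried pooled left-ventricular RNA. The IL-18 null sham pool came from 5 sham-operated knockout mice, and the IL-18 null banded pool from 6 knockout mice after transaortic constriction, a narrowing of the aorta, for 1 week. The wild-type pools, sham-operated and banded, are described by genotype and surgery alone, and the series design gives 5 to 6 mice for every group. The C57BL/6 background is stated on the banded IL-18 null array only. The wild-type strain, the wild-type banding time, the age and sex of the mice and the make of the null allele are not stated in the labels used. With 1 pooled array a side no difference has a replicate error or a test, and all counts describe these arrays. In whole tissue, fewer cells of a type and less RNA per cell cannot be told apart.

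IL-18 is a cytokine of the IL-1 family that is made as an inactive precursor and cut to its active form by caspase-1 in inflammasomes. It binds a receptor that signals through Myd88 to NF-kappa-B, and together with IL-12 it drives interferon-gamma production by T cells and natural killer cells. In the heart it is made by muscle, vascular and immune cells and is studied as a mediator of hypertrophy and of depressed contraction. Il18 itself had intensities of 9.1, 8.2, 7.4 and 8.4 in wild-type sham, IL-18 null sham, wild-type banded and IL-18 null banded, the order used for all sets of 4 values here. All 4 lay far below the floor, so Il18 was no check of the genotype labels.

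The sham arrays differed in the level of control transcripts read at several positions, and in part in how the signal fell along them. Labelling of array RNA starts at the 3′ end, so broken or short copies lose signal at the middle and the 5′ end. Control probe sets read Gapdh, a glycolytic enzyme, at 3 positions. In wild-type sham the log2 intensity of Gapdh was 11.00 at the 3′ end, 6.39 in the middle and 6.04 at the 5′ end. In IL-18 null sham it was 13.39, 10.66 and 8.26, in wild-type banded 13.90, 14.06 and 13.69, and in IL-18 null banded 13.58, 11.92 and 9.22. The fall from the 3′ end to the middle of Gapdh was therefore 4.61 in wild-type sham against 2.73 in IL-18 null sham, and it was -0.16 and 1.66 in the banded arrays. From the 3′ end to the 5′ end the fall was 4.96 and 5.13 in the sham arrays, so over the full span they were close. Wild-type sham had the lowest signal of the 4 arrays at each of the 3 positions.

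Actb, the cytoplasmic beta-actin, showed the same order of levels in its control probe sets. Its log2 intensities from the 3′ end to the 5′ end were 8.96, 4.08 and 3.15 in wild-type sham and 11.14, 6.46 and 8.10 in IL-18 null sham. They were 12.92, 10.91 and 11.00 in wild-type banded and 11.33, 6.77 and 8.42 in IL-18 null banded. The middle and 5′ probe sets of wild-type sham lay below the floor. The 3′ to middle fall of Actb was close between the sham arrays, at 4.88 and 4.69 without the floor, and was 2.01 in wild-type banded and 4.57 in IL-18 null banded. Its 3′ to 5′ fall was 5.81 in wild-type sham and 3.04 in IL-18 null sham without the floor, the former from a 5′ value below it. The ordinary probe set used for Actb read 895, 3246, 2162 and 4028, a difference of 1.86 between the sham hearts. Another ordinary probe set read 187.2, 786.3, 9730.3 and 1284.9, a difference of 2.07, and was highest in wild-type banded. Both transcripts thus read lowest in wild-type sham, also at the 3′ end, and the part of this in the gene differences below was not tested.

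**Figure D1:**
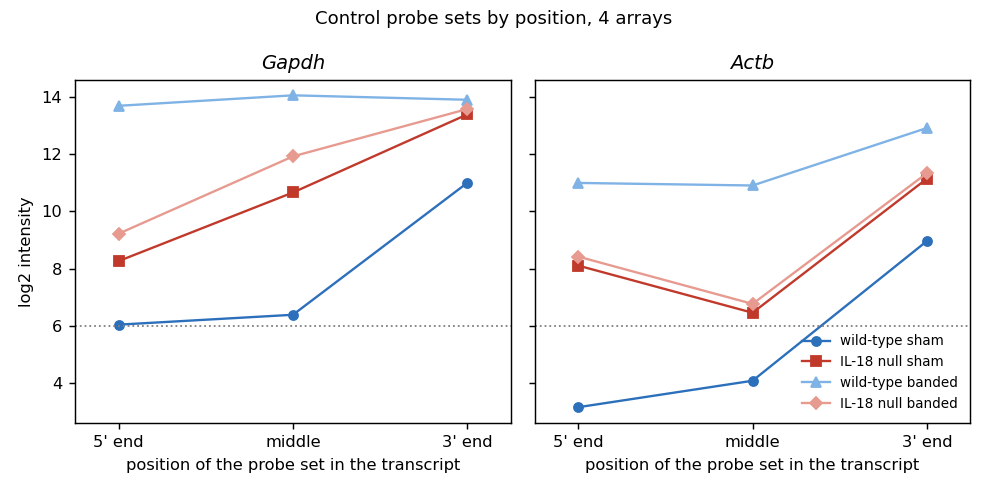
Log2 intensity (vertical axis) of the control probe sets of Gapdh (left) and Actb (right) at the 5′ end, the middle and the 3′ end of each transcript (horizontal axis), with 1 line per array and the floor of 6 dotted. Wild-type sham is the lowest line in both panels, and its middle value for Gapdh is 6.39 against 10.66 in IL-18 null sham.

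The tissue label was checked with 13 genes that define heart muscle cells. All 13 were far above the floor on every array, from Actn2 at 429 to Myh6 at 35859 in wild-type sham and from Actn2 at 4536 to Tnnt2 at 34864 in IL-18 null sham. Markers of mast cells, red blood cells and lung, thymus or epithelium had 0 members measured on the sham arrays. Of the other immune lists, 2 of 18 markers of T and natural killer cells, 1 of 10 of B cells and 3 of 12 of neutrophils were measured. Over all probe sets the median intensity was 13.7 in wild-type sham and 11.3 to 11.6 on the other arrays, and 4395 genes reached the floor in wild-type sham against 4595 to 4709 on the others.

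Between the sham hearts, more genes were brighter in the IL-18 null array than dimmer, with Scd1, Nfkbiz, Sgk1 and Fos among the dimmer ones. Members 2-fold higher were frequent among measured genes of glycolysis (14 of 32), the citric acid cycle (9 of 21), autophagy (12 of 24) and the proteasome (12 of 31). Sarcomere genes had 6 of 24. The respiratory chain (11 of 69) was near the share of all genes given next, and calcium handling (2 of 18) below it. At a threshold of 2-fold, 789 genes were higher in IL-18 null, which is 16.3% of those measured, and 305 were lower, or 6.29%. Together 22.6% of genes were past 2-fold, 3757 were within it, and the median difference of all genes was -0.07. The higher side reached further, with 286 genes past 4-fold and 107 past 8-fold, against 8 and 2 on the lower side. Of the higher genes 252 were bounds, as were 31 of the lower. The split of the genes past 2-fold depended on scaling: 72.1% of them were higher as deposited and 51.2% after quantile normalization, with 668 higher and 637 lower.

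Most of the higher genes were genes on which wild-type sham stood apart from all other arrays. Of the 789 higher genes, 627 (79.5%) had a wild-type sham value at least 2-fold below each of the 3 other arrays. IL-18 null sham was at least 2-fold above each of the 3 others for 12 of them (1.52%), and for 150 neither sham array stood alone. Of the 305 lower genes, wild-type sham was at least 2-fold above each other array for 113 (37.0%), IL-18 null sham was at least 2-fold below each for 5, and neither held for 187. Most groups of genes below are therefore given with the number of their members on which wild-type sham stood apart. Their counts of higher and lower members are to be read beside the 16.3% and 6.29% of all measured genes. The wild-type sham array also had the largest drop of Gapdh signal from the 3′ end to the middle, and what that contributed was not tested.

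**Figure D2:**
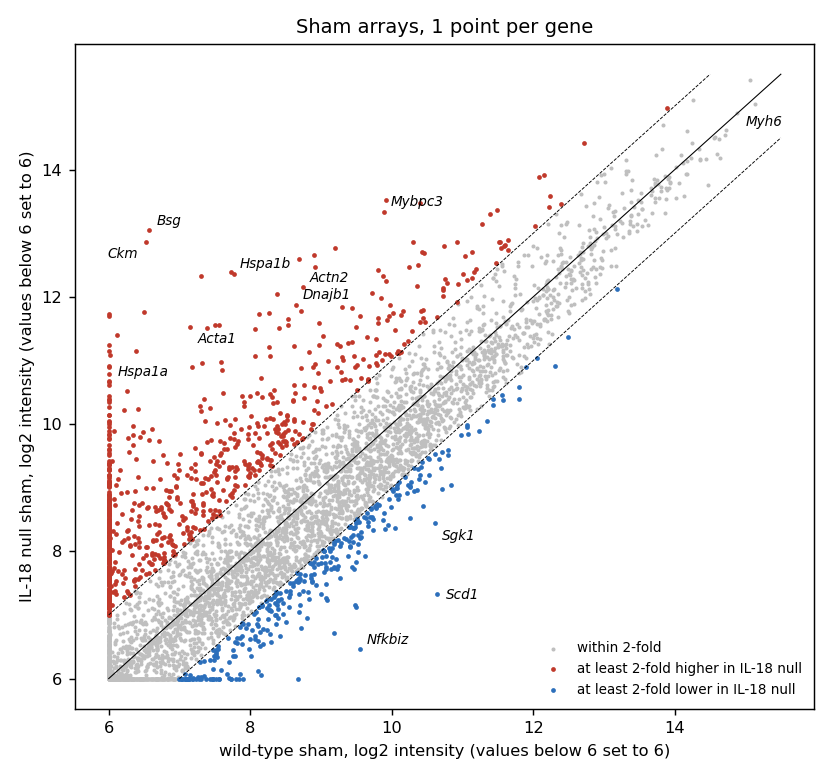
Log2 intensity in IL-18 null sham (vertical axis) against wild-type sham (horizontal axis) for the 4851 measured genes, with values below 6 drawn at 6; the solid line marks equal values and the dashed lines a 2-fold difference. Red points are the 789 genes past 2-fold on the IL-18 null side and blue points the 305 past it on the wild-type side, and the red cloud reaches further from the line than the blue.

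Bsg and Ckm, of lactate transport and high-energy phosphate use, had the largest differences among genes that no floor bounded. Ckm, the muscle creatine kinase that regenerates ATP at the myofibril, read 92.0, 7486, 16531 and 8713 on the 4 arrays, a difference of 6.35 between the sham hearts. Bsg, a membrane glycoprotein that carries lactate transporters to the cell surface, read 95.4, 8478, 14590.0 and 5443, a difference of 6.47. Pfkm, muscle phosphofructokinase, read 90.2, 3474, 5982 and 2552, a difference of 5.27. For all 3 genes wild-type sham alone was near the floor, and the other 3 arrays were far above it.

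Of the 32 measured genes of glycolysis, glycogen and creatine kinase, 14 were higher by 2-fold or more in IL-18 null sham and 0 lower, and the list median was 0.87 beside -0.07 for all genes. Glycogen phosphorylase, which releases glucose from glycogen, was higher in both its muscle form Pygm (23.2 and 2416 in wild-type and IL-18 null sham, at least 5.24) and its brain form Pygb (181 and 3017, 4.06). Pkm, the pyruvate kinase of muscle and most tissues, read 334 and 4214 (3.66), and Tpi1, triosephosphate isomerase, 1400.1 and 6602 (2.24). Pdk2, a kinase that shuts off pyruvate dehydrogenase, read 31.0 and 1333, at least 4.38. Smaller differences were seen for Ldha, lactate dehydrogenase, at 1.21, Eno3, muscle enolase, at 1.08, and Pgam2, muscle phosphoglycerate mutase, at 1.00. Slc2a4, the insulin-responsive glucose transporter, differed by 1.18, with values of 254, 574, 2261 and 297. Wild-type sham stood apart on 13 of the 14, the exception being Slc2a4.

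Enzymes of the citric acid cycle, which feeds electrons to the respiratory chain, had 21 measured members, 9 of them higher and 0 lower, and the list median was 0.73. Ogdh, the core of the oxoglutarate dehydrogenase complex, read 158, 5159.5, 5305 and 2285, a difference of 5.03. Sdhc, a membrane anchor of succinate dehydrogenase, read 54.6, 1762, 3323 and 1655, at least 4.78, while Sdhb, its iron-sulphur subunit, differed by 1.36 from a bright 4827 in wild-type sham. Got1 and Got2, the cytosolic and mitochondrial aspartate aminotransferases of the malate-aspartate shuttle, differed by 3.91 and 2.22. Slc25a11, the oxoglutarate carrier of the same shuttle, read 44.0 and 3414 in the sham hearts, at least 5.74 and the largest bound of the comparison. On 8 of the 9 cycle members, wild-type sham stood apart.

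Genes of fatty acid oxidation, the main fuel pathway of the adult heart, had 23 measured members, 9 of them higher and 0 lower, and the list median was 0.26. Hadha, the alpha subunit of the mitochondrial trifunctional protein, read 218, 5227, 8503 and 4333, a difference of 4.58. Pnpla2, the lipase that starts the breakdown of stored triglyceride, read 67.3, 946, 1845 and 616, a difference of 3.81; its other probe set was below the floor on every array. Echs1, Acadvl and Acads, enzymes of the beta-oxidation spiral, differed by 2.95, 2.57 and 2.30. Fabp3, the fatty acid binding protein of heart muscle, differed by 1.70 from an already bright 6735 in wild-type sham. Mlycd, malonyl-CoA decarboxylase, which lifts the brake on fatty acid import, read 12.4, 395, 434 and 99.3, at least 2.62. It was the only 1 of the 9 on which wild-type sham did not stand apart.

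The respiratory chain and ATP synthase list differed little as a whole. Of 69 measured subunits 11 were higher and 0 lower, and the median was 0.03, which became -0.04 after quantile normalization. Atp5g2, a gene for the c subunit of ATP synthase, read 69.2, 2703, 4728 and 1243, a difference of 5.29. Uqcrc1, a core protein of complex III, read 479 and 6463 in the sham hearts, a difference of 3.75, and Cox8a, a small subunit of cytochrome oxidase, 287 and 1372, a difference of 2.26. Atp5b, Atp5g1, Ndufs8 and Ndufs4 differed by 1.80, 1.88, 1.77 and 1.73. The share of members past 2-fold was thus close to the 16.3% of all genes, and wild-type sham stood apart on 8 of the 11.

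Among sarcomere genes, 6 of 24 measured members were higher and 0 lower, and the list median was 0.32. Des, desmin, the intermediate filament that ties myofibrils together, read 6.6, 1131, 5593 and 1352, at least 4.14. Tcap, a cap on titin at the Z-disc, read 586, 6998, 7989 and 5607, a difference of 3.58. Mybpc3, cardiac myosin binding protein C, and Actn2, the alpha-actinin of the Z-disc, read 948 and 10371 and 429 and 4536 in the sham hearts, differences of 3.45 and 3.40. The M-line genes Myom2 and Myom1 differed by 3.25 and 1.36. On all 6, wild-type sham stood apart.

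Other contractile genes lay within 2-fold. Myh6, the adult myosin heavy chain, read 35859, 33515, 39738 and 36866, a difference of -0.10, and Myl2 and Myl3, the ventricular light chains, differed by -0.06 and 0.00. Tnnt2 and Tnnc1, cardiac troponins T and C, differed by 0.83 and 0.84. Of the 13 genes that define heart muscle cells, 4 were at least 2-fold higher (Actn2, Mybpc3, Fabp3 and Mb) and 0 lower, and their summed intensity was 200476 in wild-type sham, 275473 in IL-18 null sham, 303198 in wild-type banded and 275650 in IL-18 null banded. The cell type's markers as a group were therefore also lowest in wild-type sham.

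Calcium-handling genes and ion channels had 2 of 18 members higher and 0 lower, a share below the 16.3% of all genes, and the list median was 0.28, which became -0.07 after quantile normalization. The 2 were Fxyd1, phospholemman, a regulator of the sodium pump (369 and 3028, 3.04), and Casq2, the calcium buffer of the sarcoplasmic reticulum (3101 and 7202, 1.22). On both, wild-type sham stood apart. Atp2a2, the calcium pump of the sarcoplasmic reticulum, read 13641, 19215, 19889 and 16756, a difference of 0.49. Its probe sets disagreed: 2 others differed by 0.01 and 0.54, and the dimmest read 24.7, 960.2, 1313.9 and 390.1, a difference of at least 3.91. Ryr2, the calcium release channel, differed by -0.10, and Pln, phospholamban, by -0.24. A gene whose bright probe set was equal in the sham hearts could thus have a dim probe set far apart.

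**Figure D3:**
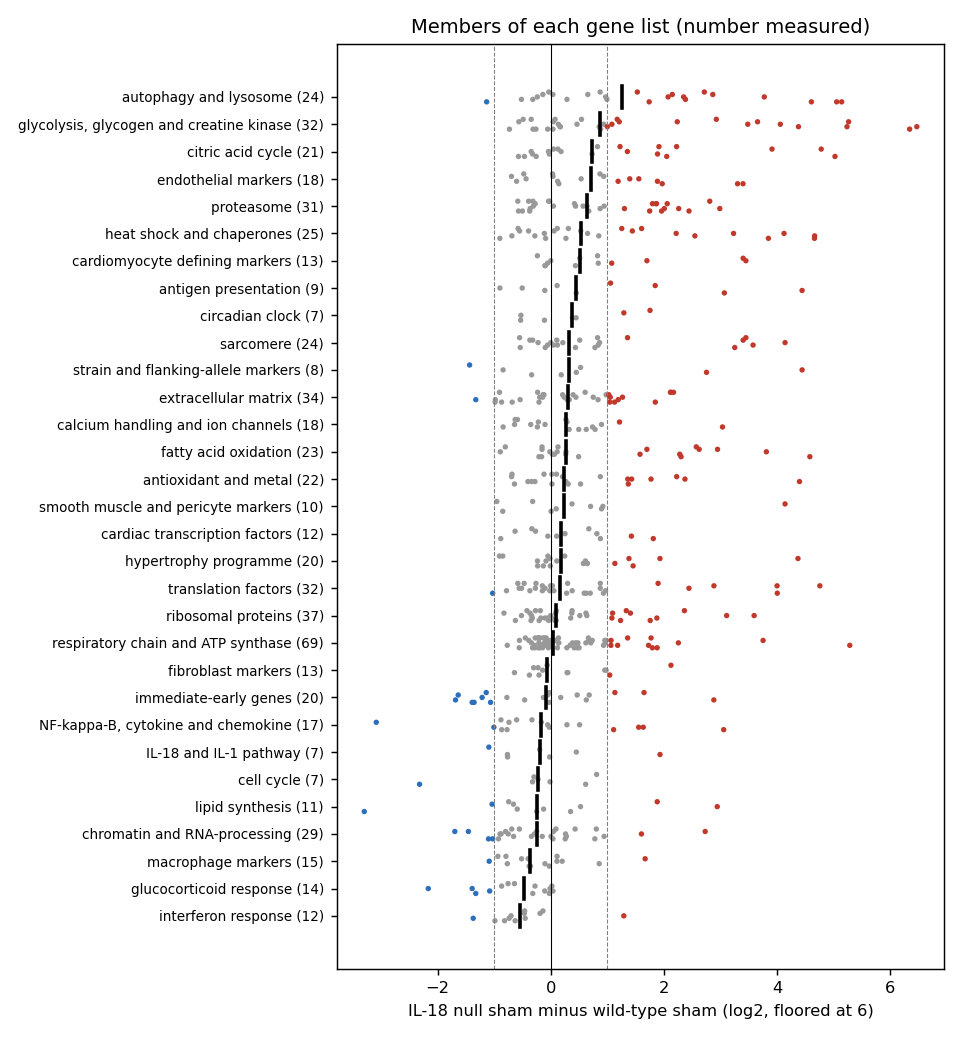
Difference between the sham hearts in log2 units (horizontal axis, IL-18 null minus wild type, values floored at 6) for each measured member of the lists with at least 7 measured members (vertical axis, number measured in brackets). Points are genes, red when at least 2-fold higher and blue when at least 2-fold lower, black bars are list medians, and autophagy and lysosome genes have the highest median at 1.26.

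Genes of autophagy and the lysosome had the highest median of the lists, at 1.26, with 12 of 24 measured members higher and 1 lower. Map1lc3a, Gabarap, Gabarapl1 and Gabarapl2 encode the small proteins that are joined to the membrane of the growing autophagosome. Map1lc3a read 65.0, 2163, 7323 and 1906, a difference of 5.06. Gabarap read 43.9, 877, 2735 and 816, at least 3.78, and Gabarapl1 and Gabarapl2 differed by 2.87 and 1.53. Sqstm1, the receptor that hands ubiquitin-tagged cargo to the autophagosome, read 13.1, 2264, 3629 and 1902, at least 5.14. In all 5 genes the wild-type sham value was the lowest of the 4.

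Most lysosomal members named here were lowest in wild-type sham too. Ctsd, the protease cathepsin D, read 48.8, 1562, 6784 and 2169, at least 4.61. Lamp1, a main protein of the lysosomal membrane, read 842 and 4289.5 in the sham hearts, a difference of 2.35, and Psap, the precursor of the saposins, 694 and 3619, a difference of 2.38. Ulk1, the kinase that starts autophagy, read 25.4 and 214, at least 1.74. Atp6v1a, a subunit of the proton pump that acidifies lysosomes, went the other way at 140.5, 63.3, 46.7 and 108, a bound of -1.13, while Atp6v0d1, a subunit of the same pump, read 46.7 and 420.3, at least 2.72. Wild-type sham stood apart on 9 of the 12 higher members.

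Proteasome genes, which encode the particle that breaks down ubiquitin-tagged proteins, had 31 measured members, 12 of them higher and 0 lower, and the list median was 0.64. Subunits of the regulatory cap were among them: Psmd2 read 156 and 1242 in the sham hearts, a difference of 2.99, and Psmd1 240.4 and 1309, a difference of 2.44. Psmb5 and Psmb7, which carry proteolytic sites of the core, differed by 2.01 and 2.06, and Psmc1 and Psmc5, ATPases of the cap, by at least 2.81 and by 1.80. Vcp, the ATPase that pulls tagged proteins out of complexes, read 28.6, 1920.0, 4295 and 2098, at least 4.91. On 11 of the 12 proteasome members, wild-type sham stood apart.

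Heat shock genes held the clearest exception to the wild-type sham pattern. The 70-kDa heat shock protein is an inducible chaperone that refolds damaged proteins, and its neighbouring genes Hspa1a and Hspa1b are switched on by heat shock factor during protein stress. Hspa1b read 212, 5379, 147 and 693, a difference of 4.67 between the sham hearts, and its other probe sets read 186.6, 5124.3, 151.7 and 437.9, and 26.3, 2564.3, 16.7 and 71.9. Hspa1a read 29.2, 1623, 9.9 and 28.5, at least 4.66. Dnajb1, the co-chaperone that delivers clients to it, read 399, 3754, 504 and 993, a difference of 3.23. In these 3 genes IL-18 null sham was at least 2-fold above each of the 3 other arrays, and wild-type sham was not the lowest array for Hspa1a or Hspa1b. The genes Hspa1a and Hspa1b are near-identical copies, so their probe sets may share signal and are not separate measurements.

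Promoters of 4 higher members of the heat shock list were chosen for display because they hold, before the start, the letters of the element that heat shock factor binds; Dnajb1 is not among them, since its windows held no match. The stretches are the 250 bases before the start of each gene from RefSeq on build GRCm38.p6, and capitals mark a match to GAANNTTC, the core of a heat shock element. They lie at chr17:34972157-34972406 on the minus strand for Hspa1a, chr17:34959239-34959488 on the minus strand for Hspa1b, chr5:135887669-135887918 on the plus strand for Hspb1 and chr6:128438657-128438906 on the minus strand for Fkbp4.
Hspa1a: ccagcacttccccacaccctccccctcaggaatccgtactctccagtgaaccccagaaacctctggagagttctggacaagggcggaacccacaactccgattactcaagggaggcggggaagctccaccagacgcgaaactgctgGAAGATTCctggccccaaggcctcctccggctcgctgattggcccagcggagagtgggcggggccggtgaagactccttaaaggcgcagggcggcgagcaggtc
Hspa1b: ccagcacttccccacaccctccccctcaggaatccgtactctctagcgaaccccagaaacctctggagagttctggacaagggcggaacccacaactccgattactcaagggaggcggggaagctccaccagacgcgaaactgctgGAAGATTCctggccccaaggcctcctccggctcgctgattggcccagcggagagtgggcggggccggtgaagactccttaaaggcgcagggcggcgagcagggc
Hspb1: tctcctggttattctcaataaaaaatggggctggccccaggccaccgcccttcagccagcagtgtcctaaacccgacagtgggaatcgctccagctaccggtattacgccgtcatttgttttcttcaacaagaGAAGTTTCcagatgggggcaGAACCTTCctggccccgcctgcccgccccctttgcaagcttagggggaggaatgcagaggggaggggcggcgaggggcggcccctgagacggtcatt
Fkbp4: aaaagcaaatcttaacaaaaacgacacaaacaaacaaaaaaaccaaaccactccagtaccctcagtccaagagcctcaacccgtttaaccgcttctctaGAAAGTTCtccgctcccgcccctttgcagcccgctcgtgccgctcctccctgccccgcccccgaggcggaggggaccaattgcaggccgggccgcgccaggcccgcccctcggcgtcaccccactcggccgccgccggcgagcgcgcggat
The stretches of Hspa1a and Hspa1b were the same at 247 of 250 bases (98.8%), and in both the match began 104 bases before the start. Hspb1 held matches beginning 117 and 97 bases before the start, and Fkbp4 held 1 beginning 151 bases before it.

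The motif was counted over the 300-base window of each promoter, 250 bases before and 50 after the start. GAANNTTC and its inverted form TTCNNGAA each equal their own reverse complement, so a search of 1 strand covers both, and a run of such units can match both with shared letters. GAANNTTC was present in 7.95% of 27025 RefSeq promoters, and in 5.80% of the 3968 promoters matched to genes measured in the sham hearts. It was present in 6.49% of the promoters of higher genes and 5.04% of those of lower genes, so the higher genes at large were not rich in it. In the heat shock list 10 of 20 matched promoters held it, 6 of 8 for the higher members and 4 of 12 for the others. The 6 were Hspa1a, Hspa1b, Hspb1, Fkbp4, Hspb8 and Bag3, with the match in Hspb8 and Bag3 lying 3 and 43 bases after the start. Hspa1a and Hspa1b have near-identical promoters and are not separate cases. On Hspb1, Fkbp4, Hspb8 and Bag3 it was wild-type sham that stood apart, as the lowest array. The windows of Dnajb1 and Hspb7 held no match to these letters. A match is a run of letters and does not show that a factor binds there.

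Of the 25 measured heat shock and chaperone genes 10 were higher and 0 lower, and the list median was 0.53. Wild-type sham stood apart on the 7 of these 10 other than Hspa1a, Hspa1b and Dnajb1. Hspb8 and Bag3, partners that route damaged muscle proteins to autophagy, read 167, 2914, 5532 and 2181 (4.13) and 39.5, 922, 2797 and 577 (at least 3.85). Another probe set of Hspb8 read 398.0, 373.7, 357.8 and 374.1, so its probe sets disagreed. Hspb7, a small heat shock protein of heart muscle, read 629.7, 3684, 12218 and 2804, a difference of 2.55. Hspb1, a small heat shock protein that guards actin, and Hspa9, the mitochondrial relative of the 70-kDa protein, differed by 1.44 and 1.61. Fkbp4, a co-chaperone of steroid receptors, read 13.8 and 298 in the sham hearts, at least 2.22.

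Other chaperones of the list lay within 2-fold. Hspa8, the constitutive member of the 70-kDa family, read 10688 and 9885 in the sham hearts, a difference of -0.11. Hsp90aa1, the inducible form of the 90-kDa chaperone, differed by 0.27, and Hsph1, an exchange factor that heat also induces, by 0.65. Hspd1 and Hspe1, the mitochondrial chaperonin and its lid, differed by 0.31 and -0.09, and Hspa5, the chaperone of the endoplasmic reticulum, by 0.53. The members past 2-fold thus did not include Hsp90aa1 or Hsph1.

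**Figure D4:**
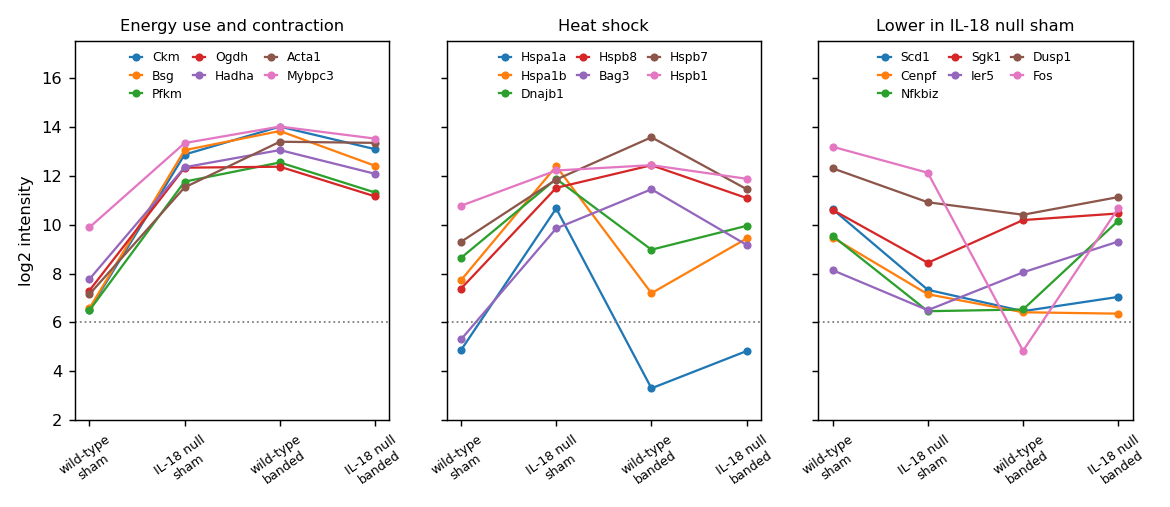
Log2 intensity (vertical axis) on the 4 arrays (horizontal axis) for genes of energy use and contraction, heat shock genes and genes lower in IL-18 null sham, with 1 line per gene and the floor of 6 dotted. The lines of the left panel dip in wild-type sham, while Hspa1a, Hspa1b and Dnajb1 in the middle panel peak in IL-18 null sham.

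IL-18 null sham stood at least 2-fold above all arrays on 9 other genes. They were Ier2 (39.3, 472, 116 and 204, at least 2.88), Nr4a1, Ccn1, Prps1, Stard3nl, Wdr26, Tmlhe, AY036118 and Gtf2a1. Nr4a1, a nuclear receptor induced within minutes of stimulation, read 433, 1357, 499 and 585, a difference of 1.65. Ccn1, a matrix-associated immediate-early protein, read 997, 2188, 650.0 and 904, a difference of 1.13. Prps1, which makes the ribose phosphate for nucleotides, read 77.3, 295, 119 and 102, a difference of 1.93. Tmlhe reversed with the mean of all its probe sets (-0.45 in place of 1.40).

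Genes of protein synthesis were mixed. Of 37 measured ribosomal protein genes 10 were higher and 0 lower, but the median was 0.09, and 0.00 after quantile normalization. Rplp0, of the ribosomal stalk, read 968 and 11706 in the sham hearts, a difference of 3.60, and Rps14 339.6 and 2933, a difference of 3.11. Of 32 translation factors 6 were higher and 1 lower, a share of higher genes near the 16.3% of all genes, and the list median was 0.17, which became -0.08 after quantile normalization. Eif5a, a factor that keeps stalled ribosomes moving, read 83.5, 2259.7, 7746 and 2232, a difference of 4.76, and Eef2, which moves the ribosome along the message, 188, 3022, 5688 and 2843, a difference of 4.01. Eif1a, an initiation factor, was the lower member at 156 and 76.4, a difference of -1.03. On all 10 ribosomal genes and all 6 higher factors, wild-type sham stood apart.

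Antioxidant and metal-binding genes had 22 measured members, 7 of them higher and 0 lower, and the list median was 0.24. Gpx3, a secreted glutathione peroxidase, read 36.1, 1349.8, 3460.3 and 899, at least 4.40. Nqo1 and Txnrd1, enzymes under the control of the oxidant-sensing factor Nrf2, read 38.3 and 332 and 30.7 and 299.5 in the sham hearts, at least 2.37 and 2.23. Sod1, the cytosolic superoxide dismutase, differed by 1.36. Mt1 and Mt2, the metallothioneins that bind zinc, differed by -0.64 and -0.28 and so lay within 2-fold. On 6 of the 7 higher members, wild-type sham stood apart.

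In the extracellular matrix list 10 of 34 measured members were higher and 1 lower, and the list median was 0.31. Dcn, decorin, a proteoglycan that coats collagen fibrils, read 1330.4, 5805, 10344 and 7041, a difference of 2.13. Col4a2, a chain of basement membrane collagen, read 257, 1116, 1450.4 and 2257, a difference of 2.12, and Col6a3 read 42.9 and 230.5 in the sham hearts, at least 1.85. Timp2, Timp3 and Timp4 inhibit the proteinases that cut matrix, and they did not go one way: Timp2 differed by 2.17, Timp3 by 1.13 and Timp4 by -1.33. Timp4, the inhibitor best known from heart muscle, read 754, 301, 540.5 and 201 and was the lower member. On 9 of the 10 higher members, wild-type sham stood apart. Fibroblast markers had 2 of 13 higher, Dcn and Col1a1, near the 16.3% of all genes, and wild-type sham stood apart on both. Their list median was -0.06, or 0.01 after centring, and their summed intensity ranged from 26201 in wild-type sham to 50806 in IL-18 null banded.

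Endothelial markers had 18 measured members, 7 of them higher and 0 lower, and the list median was 0.70. Aqp1, the water channel of capillary endothelium, read 192, 2025, 2943 and 1241, a difference of 3.40. Emcn, endomucin, a surface glycoprotein of capillaries and veins, read 98.2, 969, 929 and 584, a difference of 3.30. Kdr, the main receptor for vascular endothelial growth factor, differed by less, at 218, 499, 295 and 256 (1.19), and was the 1 of the 7 on which wild-type sham did not stand apart. The list's summed intensity was 18097 in wild-type sham and 21892 in IL-18 null sham, most of it from Fabp4, a gene of fat and endothelium. Smooth muscle and pericyte markers had 1 of 10 higher, Des, which heart muscle also expresses, and the list median was 0.24.

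Genes that mark the hypertrophied ventricle were compared without any load. Of 20 measured members of the hypertrophy programme 5 were higher in IL-18 null sham and 0 lower, and the list median was 0.18. Nppa, atrial natriuretic peptide, read 2722, 2316, 7217 and 13126, a difference of -0.23, and Nppb, the B-type peptide, 2418, 3607, 6307 and 7946, a difference of 0.58. Myh7, the slow myosin heavy chain of the fetal ventricle, read 309.5, 474, 1156 and 4725, a difference of 0.61. The natriuretic peptides and Myh7 were thus within 2-fold between the sham hearts. The 5 higher members were Acta1, Xirp1, Rcan1, Myl4 and Ccn1.

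Acta1, the skeletal alpha-actin re-expressed in the loaded heart, read 142, 2950.1, 10769 and 10429.7, a difference of 4.37 and the largest of the list. Rcan1, an inhibitor and target of calcineurin, read 108, 295, 524 and 1640.5, a difference of 1.46. Xirp1, an actin-binding protein of the intercalated disc, read 50.1 and 244 in the sham hearts, at least 1.93, and Myl4, the atrial light chain, differed by 1.38. Wild-type sham stood apart on 4 of the 5, with Ccn1 the exception. Cardiac transcription factors had 2 of 12 higher, Mef2d (at least 1.81) and Gata6 (1.43), and 0 lower, near the 16.3% of all genes that were higher, and the list median was 0.18, which became -0.04 after quantile normalization.

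On the lower side, the most negative genes had varied roles, and members of some lists given further below were lower too. Scd1, the desaturase that makes monounsaturated fatty acids, read 1589, 162, 88.2 and 132, a difference of -3.30 and the most negative among genes measured on both sham arrays. Its value was high in wild-type sham alone, and its other probe set was below the floor on every array, so that the mean of its probe sets gave -0.43. Of 11 measured genes of lipid synthesis 2 were lower and 2 higher, and the list median was -0.25. Wild-type sham stood apart on 3 of the members past 2-fold. Acacb, the acetyl-CoA carboxylase at the mitochondrial surface, and Dgat2, which completes triglyceride, were higher by 2.94 and 1.88. Acly, which makes cytosolic acetyl-CoA, was lower at -1.04, but read 0.03 when probe sets shared between transcripts were left out.

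Some fat cell genes had the same wild-type sham peak as Scd1. Car3, a carbonic anhydrase abundant in fat and skeletal muscle, read 408, 27.6, 13.4 and 19.9, a bound of -2.67. Ucp1, the uncoupling protein of brown fat, read 139.6, 7.8, 7.0 and 7.6, a bound of -1.13. The list as a whole did not go one way: Fabp4, of fat and endothelium, differed by 0.03, Cidea, of brown fat droplets, was higher at 10.8 and 169.5, at least 1.41, and Adipoq, Retn, Lep, Cidec and Lipe were below the floor on both sham arrays. Wild-type sham stood apart on Car3, Ucp1 and Cidea. The 5 measured of 10 adipocyte markers summed to 14166 in wild-type sham, 14088 in IL-18 null sham, 14684 in wild-type banded and 14098 in IL-18 null banded. In wild-type sham Car3, Ucp1, Pparg and Cidea read 408, 139.6, 87.9 and 10.8, so nearly all of the sum was Fabp4. The sums therefore do not show how much fat tissue each pool held. The part of fat tissue in the Scd1 difference was not tested.

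Immediate-early genes, which cells switch on within minutes of a stimulus, differed in both directions. Of 20 measured members 7 were lower in IL-18 null sham, beside 6.29% of all genes. Another 3 were higher, near the 16.3% of all genes. The median was -0.09, or 0.01 after cyclic loess. Fos, the AP-1 subunit, read 9347, 4469, 28.7 and 1632, a difference of -1.06, and Egr2, a zinc finger factor, read 620.5, 281, 69.8 and 329, a difference of -1.14. Atf3, a stress-induced repressor, read 328, 128, 66.8 and 720.1, a difference of -1.36. Both sham arrays held more Fos signal than either banded array, and the IL-18 null banded array was above the wild-type banded array for all 3 genes.

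The phosphatases Dusp1 and Dusp6, which switch off MAP kinases, read 5074, 1936, 1359 and 2241 and 1062, 330.5, 344 and 598, differences of -1.39 and -1.68. Gadd45b, a stress sensor upstream of p38 kinase, differed by -1.21, and Ier5, a nuclear stress-response protein, by -1.64. The 3 higher members were Ier2, Nr4a1 and Ccn1. Egr1 and Jun lay within 2-fold, at 0.47 and 0.63. Of the 10 members past 2-fold, wild-type sham stood apart on 2, IL-18 null sham on 4, and neither on the others.

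Genes induced by glucocorticoids, the adrenal stress hormones, had 4 of 14 measured members lower, beside 6.29% of all genes, and 0 higher. The list median was -0.48, and wild-type sham stood apart on 1 of the 4. Sgk1, a kinase that raises sodium transport, read 1560.5, 348, 1168 and 1409, a difference of -2.17, and IL-18 null sham was at least 2-fold below each of the 3 other arrays. Zbtb16, a zinc finger repressor strongly induced by the hormone, read 540.0, 215, 363 and 121, a difference of -1.33. Errfi1, an inhibitor of the epidermal growth factor receptor, and Dusp1, which also stands among the immediate-early genes, differed by -1.08 and -1.39. The classic targets Fkbp5 and Tsc22d3 differed by -0.32 and -0.11, both within 2-fold, Fkbp5 reading close to the floor. The other genes on which IL-18 null sham stood lowest by 2-fold were Ctla2a (1222, 368, 865 and 1286), Ctla2b, Ier5 and Ddx39a.

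Regulators of RNA and chromatin had 4 of 29 measured members lower and 2 higher, and the list median was -0.25. Sirt1, a deacetylase that senses the NAD pool, read 788, 243, 124 and 195, a difference of -1.70. Zfp281, a zinc finger repressor, read 489, 178, 84.0 and 220.0, a difference of -1.46. Srsf5, a splicing factor, was higher at 53.4 and 425, at least 2.73. Wild-type sham stood apart, as the highest array for Sirt1 and Zfp281 and as the lowest for Srsf5 and Smarca4, on 4 of the 6. Other genes among the largest lower differences were Cenpf, a kinetochore protein, at 712 and 143 (-2.32), Preb at 583 and 105 (-2.47), Cntd1 at 725 and 139 (-2.38) and Mbip at 284 and 66.5 (-2.09).

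The IL-18 and IL-1 pathway could be read in part only. Of 22 members with a probe set 7 were measured on the sham arrays. Il18r1, Il18rap and Il18bp, the receptor chains and the decoy that binds IL-18, were below the floor on both, as were Il1b, Casp1, Nlrp3 and Myd88. Ikbkb, the kinase that releases NF-kappa-B from its inhibitor, read 704, 329, 405 and 450.4, a difference of -1.10. Tollip, an adaptor that restrains IL-1 receptor signalling, read 43.4, 244, 201 and 239, at least 1.93. Il1r1, the IL-1 receptor, and Irak1, a kinase below it, differed by -0.02 and 0.45, and the list median was -0.20.

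Genes of NF-kappa-B, cytokines and chemokines had 17 measured members, 4 of them higher and 2 lower, and the list median was -0.17. Nfkbiz, a nuclear member of the inhibitor family, read 748, 88.1, 92.5 and 1145, a difference of -3.09. It was high in wild-type sham and in IL-18 null banded and near the floor on the other arrays, with 1 of its 2 probe sets measured. Nfkbia, the inhibitor that NF-kappa-B itself induces, read 4247, 2114, 2721 and 4926, a difference of -1.01, and followed the same order at a higher level. Cxcl1, a chemokine for neutrophils, was higher at 60.7, 533, 162 and 1006, at least 3.06. Cxcl12, the chemokine that retains stem and lymphoid cells, differed by 1.55, and Stat3 and Rela, transcription factors of inflammation, by at least 1.64 and 1.11. The probe sets of Cxcl12 disagreed, as its other one read 431.1 and 267.8 in the sham hearts, a difference of -0.69. On 3 of the 4 higher members, wild-type sham stood apart.

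Interferon response genes had 12 measured members, 1 of them higher and 1 lower, but a median of -0.55, the lowest of the lists with at least 7 measured members. Gbp3, a guanylate-binding protein induced by interferon-gamma, read 431, 166, 122 and 186, a difference of -1.37, and Irf1, the transcription factor that serves the same signal, 118, 288, 669.5 and 858, a difference of 1.29. On both Gbp3 and Irf1, wild-type sham stood apart. Outside the list, Rtp4 and Gbp7, both interferon-induced, were among the 12 largest lower differences, at -1.93 and -1.86. Rtp4 read 422, 111, 179 and 463 and Gbp7 544, 150.1, 157 and 252. The other 10 measured members of the list lay within 2-fold, and 13 of its 25 genes with a probe set were below the floor on both sham arrays.

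Antigen presentation genes had 9 measured members, 4 of them higher and 0 lower, and the list median was 0.45. Cd74, the invariant chain that guards class II molecules, read 58.8, 537, 1034 and 1219, at least 3.07, and H2-Eb1, a class II chain, 108, 226, 308 and 532, a difference of 1.06. H2-D1, a class I chain, read 49.7, 1394, 3211 and 2079, at least 4.44. Wild-type sham stood apart on all 4. Macrophage markers had 1 of 15 higher, C1qc (at least 1.67), on which wild-type sham stood apart, and 1 lower, Ptprc (-1.09). Their list median was -0.36, and their summed intensity was 13196 in wild-type sham and 10689 in IL-18 null sham.

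The remaining genes with the most extreme differences belonged to no list. On the higher side, Tecr, an enzyme that lengthens fatty acids, read 7.6, 3342, 6479 and 2376, at least 5.71, and Inpp5a, which removes a phosphate from the calcium-releasing messenger inositol trisphosphate, 46.0, 1909, 2495 and 1639, at least 4.90. Dcaf11, a substrate receptor for a ubiquitin ligase, read 76.4, 1474, 1525 and 1316, a difference of 4.27. On all 3, wild-type sham stood apart. On the lower side, Adm, the vasodilator peptide adrenomedullin, read 212, 53.8, 79.3 and 65.8, a bound of -1.73, and Hnmt, which inactivates histamine, 222, 59.7, 38.0 and 40.0, a bound of -1.80. Asb13 read 239, 63.1, 44.3 and 50.3, a bound of -1.90, Nupl1 276 and 69.3 in the sham hearts, a difference of -1.99, Med21, of the Mediator complex, 448 and 123, a difference of -1.86, and Tmtc4 539 and 154, a difference of -1.81. Wild-type sham was the brightest array for Adm, Hnmt, Asb13, Nupl1, Med21 and Tmtc4.

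The same genotype difference was read in the banded hearts, which share no array with the sham pair. There 4947 genes were measured, 282 were higher in IL-18 null by 2-fold or more and 383 lower, together 13.4% of genes. Among the 4640 genes measured in both pairs, 5 were past 2-fold on the IL-18 null side both times, Hspa1b, Cxcl1, Rcan1, Col1a1 and Sorl1. These are 0.635% of the genes higher in the sham pair, while 5.7% of all genes were higher in the banded pair. They are 2.02% of the genes higher in the banded pair, while 16.3% of all genes were higher in the sham pair. Another 5 were lower both times, Zbtb16, Timp4, Snrpd3, Uty and Gdap10. They are 1.72% of the lower genes of the sham pair, while 7.74% of all genes were lower in the banded pair. They are 1.56% of the lower genes of the banded pair, while 6.29% of all genes were lower in the sham pair. The shares of repeated genes lay below these background shares.

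Hspa1b differed by 4.67 in sham and 2.24 in banded hearts. Dnajb1, at 3.23 and 0.98, stayed just within 2-fold in the banded pair and is not among the 5. Cxcl1 differed by at least 3.06 and by 2.64, with IL-18 null above wild type in both pairs. Rcan1 differed by 1.46 and 1.65. Col1a1, the main chain of fibrillar collagen, read 109.7, 226, 591 and 1633, differences of 1.04 and 1.47, but its other probe set differed by -0.95 in the sham pair. Sorl1, a sorting receptor, read 68.5, 160.4, 36.0 and 153, a difference of 1.23 and at least 1.26. Of these 5, Hspa1b alone had several probe sets and all of them past 2-fold the same way in the sham pair.

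Among the genes lower in both pairs, Timp4 differed by -1.33 and -1.43, Zbtb16 by -1.33 and -1.59, and Snrpd3, a core protein of the spliceosome, by -1.54 and -1.32. The other probe set of Zbtb16 lay below the floor on every array, and the mean of its probe sets gave -0.76 in the sham pair. Snrpd3 read 992, 340.3, 833 and 333, with the IL-18 null arrays at the same level. Its other probe sets read 125.6, 124.2, 51.5 and 87.5, and 142.4, 67.9, 27.6 and 24.7. The former disagreed, as it differed by -0.02 in the sham pair and was not lower in the banded pair. The latter differed by -1.07 in the sham pair and lay below the floor on both banded arrays. Uty, which lies on the Y chromosome, read 256, 99.0, 332 and 39.0, a difference of -1.37 and a bound of -2.37. Eif2s3y, the other measured Y-linked gene, read 646, 526, 454 and 668 and differed by -0.30. The other probe set of Uty read 89.9, 18.9, 73.7 and 14.8. The sex-linked markers Xist and Kdm5d lay below the floor on both sham arrays. The labels do not state the sex of the mice, and its part in the Uty difference was not tested. Gdap10 read 314, 94.9, 148 and 8.6, a difference of -1.73 and a bound of -1.20.

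Opposite directions were more frequent. Of the genes higher in the sham pair, 184 were at least 2-fold lower in the banded pair, which is 23.4% of the former and 57.5% of the latter. Over all genes 7.74% were lower in the banded pair and 16.3% higher in the sham pair. Of the genes lower in the sham pair, 54 were higher in the banded pair, or 18.6% and 21.9%. Over all genes 5.7% were higher in the banded pair and 6.29% lower in the sham pair. The median banded difference was -0.44 for genes higher in sham, 0.60 for genes lower in sham and 0.12 for all. Across the 4640 genes the differences of the pairs correlated at a Pearson r of -0.528 and a Spearman rho of -0.592, given as a description, since genes are not independent and share probe and labelling properties. On the Gapdh control, wild-type sham had the lowest middle signal and wild-type banded the highest, so the sham and banded genotype pairs differed in opposite directions there too, and its part in the correlation was not tested.

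**Figure D5:**
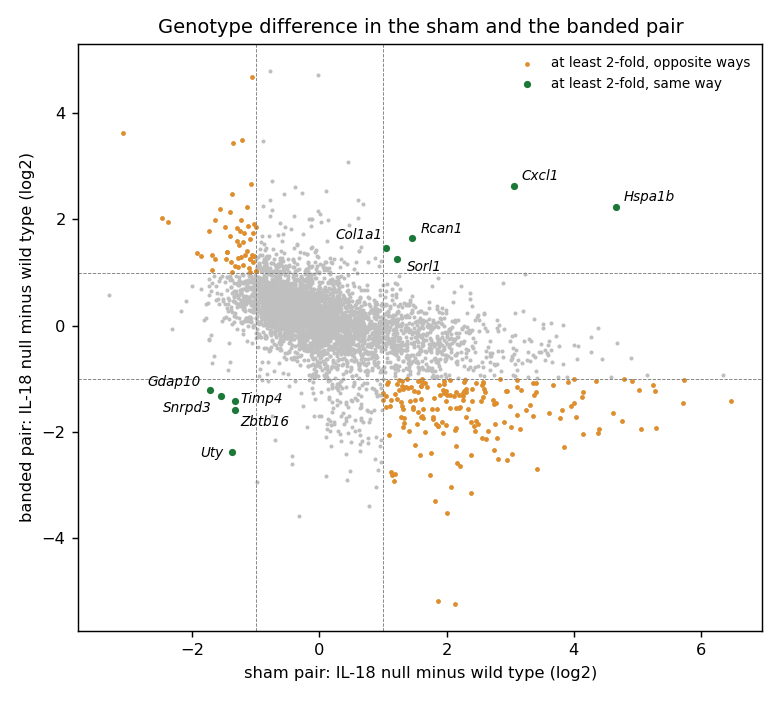
Genotype difference in log2 units in the banded pair (vertical axis) against the sham pair (horizontal axis) for the 4640 genes measured in both, with dashed lines at 2-fold. Orange points are the 184 and 54 genes past 2-fold in opposite directions, and the 10 green points, named, are past 2-fold in the same direction.

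The genes around Il18 were read apart, since DNA beside a targeted gene can stay from the strain in which the allele was made. By the gene order of RefSeq assembly GRCm38.p6, 57 measured genes lay within 10 Mb of Il18, of which 8 were higher and 5 lower, together 22.8% beside 22.6% of all genes. Pts, an enzyme of tetrahydrobiopterin synthesis close to Il18, read 722, 229, 455 and 306, a difference of -1.66, with -0.58 in the banded pair. The other lower genes were Zbtb16, Wdr61, 1110032A03Rik and Bace1, and of these Zbtb16 alone was past 2-fold the same way in the banded pair. The higher genes were Pkm, Islr, Hexa, Mpi, Psma4, Trappc4, Hspb2 and Sorl1, from 3.66 for Pkm to 1.23 for Sorl1. Within 5 Mb of Il18, 27 genes were measured, 2 of them higher and 5 lower, with a median of -0.21, so all 5 lower genes lay in the nearer window. The share past 2-fold was close to the background at 10 Mb, while lower genes outnumbered higher ones at 5 Mb, on few genes and with no test.

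The differences varied with brightness and between probe sets. When genes were ranked by their mean on the banded arrays into 4 equal bins, the share higher in IL-18 null sham was 3.38%, 16.9%, 22.9% and 21.8% from the dimmest to the brightest, and the share lower was 9.32%, 8.90%, 5.53% and 1.40%. A gene could be past 2-fold only if a sham array was at least 2-fold above the floor. The dimmest bin ran from a mean log2 of 2.70 to 7.32, so the floor limited how many of its genes could be called. Its genes below the floor on the banded arrays were measured only because a sham array reached it. The shares of this bin thus follow in part from how genes were admitted, and the trend with brightness was not tested apart from that. Of the 789 higher genes, 175 had other measured probe sets, and for 66 of them (37.7%) all were at least 2-fold higher too, while for 4 any was 2-fold lower. Of the 305 lower genes, 98 had other measured probe sets, and for 10 of them (10.2%) all were at least 2-fold lower, while for 10 any was 2-fold higher. Promoter GC content was close between the groups, with medians of 61.0% for higher, 59.8% for lower and 61.7% for all other genes with a matched promoter.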

How the data were processed

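RNA pooled within each of 4 groups was hybridised to 4 biotin-labelled arrays, 1 per group, and groups were taken from the sample titles. The deposited values are linear intensity values per probe set that the authors made with GCRMA, according to the submitters' processing notes. Which version and settings were used, and whether values were scaled afterwards, is not given in the sources used here. Precision is limited by the number of arrays. Of 22690 probe sets 64 were controls, 20380 had 1 gene in the platform annotation, 691 several and 1555 none; only those with 1 gene were used, and 20351 matched RefSeq (GRCm38.p6).

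Intensities were floored at 64 and put on the log2 scale in Python 3.11.15 (pandas 2.3.3, numpy 2.4.6), and differences of at least 1 were counted, with no test. The counting step was checked on simulated data. Quantile normalization and cyclic loess used limma 3.58.1 in R 4.3.3. Members, gene lists (40) and alternatives were chosen with earlier results of these data known. Genes were named by rule: the 12 largest differences per direction measured on both sham arrays, the 6 largest bounds, up to 8 per direction past 2-fold the same way in both genotype pairs with all arrays at the floor, up to 4 per list, and always Il18, Nppa, Nppb, Myh6, Myh7, Acta1, Atp2a2, Gapdh and Actb. Others (list members, genes on which IL-18 null sham stood apart, genes near Il18) were named after their values were seen. Gapdh had no ordinary probe set with 1 gene. Alternatives were floors at log2 5 and 7, no floor, other scaling, centring, probe-set choices, thresholds of 1.5-fold and 4-fold and windows of 5 and 20 Mb.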

Additional observations from a re-analysis of the deposited data

Results flagged for a closer look

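The genotype difference went opposite ways in the sham and the banded pair for 184 genes that were higher in IL-18 null sham and lower in IL-18 null banded, and for 54 genes the other way round. With 1 array per group the difference between the pairs was not tested, and the arrays differed in their Gapdh signal along the transcript in the same opposite sense. Banded differences, IL-18 null minus wild type on the log2 scale, are given for the named genes.

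Among genes higher in sham, those of energy use had banded differences of -1.42 for Bsg, -1.93 for Atp5g2, -1.23 for Pfkm, -1.21 for Ogdh, -1.12 for Pygm, -1.03 for Slc25a11, -1.01 for Sdhc and -1.06 for Got1. Those of lipid use were -1.58 for Pnpla2, -1.22 for Echs1, -2.13 for Mlycd, -2.52 for Acacb, -1.12 for Dgat2 and -1.45 for Tecr, a reductase of long-chain fatty acid synthesis. Those of protein turnover were -1.94 for Map1lc3a, -1.65 for Ctsd, -1.74 for Gabarap, -1.32 for Psmd8, -1.03 for Vcp, -1.34 for Hspb8 and -2.28 for Bag3. Those of protein synthesis were -1.80 for Eif5a, -1.03 for Rps14 and -1.0 for Eef2. The others were -2.05 for Des, -1.25 for Aqp1, -1.94 for Gpx3, -1.04 for Dbp, -1.41 for Gata6 and -1.40 for Srsf5.

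Among genes lower in sham, Nfkbiz had a banded difference of 3.63 and Errfi1 of 2.67. Preb differed by 2.03, Cntd1 by 1.95, Ptprc by 1.64, Zfp281 by 1.39, Rtp4 by 1.37, Med21 by 1.32, Ier5 by 1.26 and Acly by 1.20. The wild-type banded array was below IL-18 null banded for each of them.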

How the results depend on the processing

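With 1 array per group no array could be left out and nothing shows the error of a difference. No paired analysis was possible because each group had 1 array. Bins by protein length were not run, since no protein table was at hand. Dim genes give bounds, and signal over background limits what they show. The count of 789 higher genes became 286 at 4-fold, and, in alternatives chosen after seeing the data, 162 without genes on which wild-type sham stood apart and 66 when at least 2 measured probe sets had to go the same way. The count of 305 lower genes became 637 after quantile normalization, 130 with the mean of all probe sets, 1043 at 1.5-fold, 8 at 4-fold, and 192 and 10 under the same added alternatives. The 162 and 192 are what remained once the 627 and 113 genes with wild-type sham apart were left out. The 66 and 10 could come only from the 175 and 98 genes with other measured probe sets, so most called genes could not qualify. The cause of the changes under quantile normalization and the mean of all probe sets was not tested. The 5 genes higher in both pairs became 9 with a floor at log2 5 or no floor, 3 with a floor at log2 7, 2 with the mean of all probe sets, 38 at 1.5-fold and 2 at 4-fold. The 5 lower in both became 3, 2, 20 and 0 with the floor at log2 7, the mean of all probe sets, 1.5-fold and 4-fold. The 184 genes higher in sham and lower in banded became 401 at 1.5-fold and 19 at 4-fold. The 54 of the other kind became 34 with a floor at log2 7, 115 after quantile normalization, 33 after cyclic loess, 23 with the mean of all probe sets, 406 at 1.5-fold and 2 at 4-fold. Near Il18 the 8 higher genes became 18, 3 and 2 at 1.5-fold, at 4-fold and within 5 Mb. The 5 lower genes became 8 after quantile normalization, 3 with the mean of all probe sets, 14 at 1.5-fold and 0 at 4-fold, and stayed 5 within 5 Mb. Of the named genes Acly reversed to 0.0347 without shared probe sets and Tmlhe to -0.45 with the mean of all probe sets. In the brightest of 10 bins of genes 0.412% were lower, against 1.40% in the brightest of 4. Of 137 genes past 2-fold that were followed, 92 stayed past it the same way in every setting that gave them a value.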

Other observations

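Clock output genes and strain markers were not described above. Of 7 measured circadian genes 2 were higher in IL-18 null sham and 0 lower, with a median of 0.38. Dbp, a clock-driven transcription factor with a strong daily rhythm, read 260.3, 638, 599 and 291, a difference of 1.29, and Tef, of the same family, read 180.2, 608, 907 and 639.6, a difference of 1.76. Clock, which drives the loop, read 205 and 142 in the sham hearts, a difference of -0.53.

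Of 8 measured genes known to vary between laboratory strains, 2 were higher in IL-18 null sham, 1 lower and 5 within 2-fold. Over all genes 16.3% were higher and 6.29% lower, and the list median was 0.32. The higher ones were Erdr1 and H2-D1, the latter given above with the antigen presentation genes. Wdfy1, the lower one, read 173, 17.4, 114 and 17.6. Both wild-type arrays were above the floor and both IL-18 null arrays were well below it, a bound of -1.44 in sham and of -0.84 in banded hearts. Erdr1 read 85.6, 578, 319 and 192, a difference of 2.75, and did not follow genotype in the banded pair, at -0.74. Outside this list, Hamp, the iron hormone hepcidin, read 229, 36.4, 30.9 and 38.0 and was above the floor in wild-type sham alone.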
